A study of Arabidopsis thaliana with 9 samples.

Results

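The genes described here are those whose mRNA level was far higher in Arabidopsis thaliana seedlings grown in continuous white light than in dark-grown seedlings, while dark-grown seedlings given their first hour of red light stayed within 2-fold of the dark level. They were chosen from the measured values: a level of at least 50 pseudo-counts in white light (WLc), a difference of at least 4 between WLc and darkness (D) on the scale log2(value + 1), and a difference smaller than 1 in either direction between red light (R1h) and D. The rule found 77 of the 17680 genes in the table. A pseudo-count is a read count adjusted to a common library size, and a difference of 4 on the log2 scale is 16-fold.

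All seedlings were wild type of the Columbia-0 accession, 3 libraries were made per group, and mRNA was read at its 3′ end, so that a level counts reads from the last 500 bases of a transcript and is not divided by length. D seedlings had 4 days of stratification in the cold, then 3 h of white light to start germination and a far-red pulse of 5 min that turns phytochrome off. They were then kept 2 days in true darkness at 21 °C, the temperature listed for all 3 groups. R1h seedlings had the same start and spent 47 h in darkness, followed by 1 h under red light (10 µE m-2 s-1). WLc seedlings were kept for 2 days under white light without a dark period (100 µE m-2 s-1) once stratified, and the sources state neither the germination light nor the far-red pulse for them. R1h and WLc therefore differ in wavelength, intensity, duration and possibly in the start of germination, which cannot be told apart. The deposited table holds 1 value per gene and group, the authors' mean of the 3 libraries, so no spread between libraries, no test and no p-value is given for any difference. Intervals are exact conditional binomial 95% intervals of the ratio of reads behind the means. They cover counting error only.

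When a seedling emerges into light, the dark programme of a long hypocotyl, a closed hook and undeveloped plastids gives way to open cotyledons and working chloroplasts. Phytochrome, the red light receptor, removes the phytochrome-interacting factors (PIFs) within minutes, and many light-regulated genes respond in the first hour. Others change only after hours or days, when chloroplasts are assembled, sugars are made and leaves and roots grow. Chloroplasts need much iron for their electron carriers, which roots take up through an iron transporter controlled by bHLH transcription factors. Cell walls are loosened and rebuilt by XTH enzymes, which cut and rejoin xyloglucan chains, and outer surfaces are sealed by lipid polymers such as cutin and suberin.

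The total of a column was 11.4 M pseudo-counts for D, 11.99 M for R1h and 12.5 M for WLc. A single read was worth 0.331 pseudo-counts in the D mean, 0.330 in R1h and 0.327 in WLc. The 77 genes together made up 0.161% of the D column, 0.219% of the R1h column and 3.65% of the WLc column. Without the 4 most abundant of them (CAB1, RCA, THI1 and CA1), their share was 0.0100% in D, 0.0120% in R1h and 0.410% in WLc. Their median level was 4.86 in D, 5.24 in R1h and 240 in WLc, where the medians of all 17299 genes with a level of at least 10 in some group were 116 in D, 118 in R1h and 121 in WLc. In D, 52 of the 77 stood under 10 pseudo-counts, 5 rested on 1 to 3 reads and 7 were listed at 0.

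A strong WLc rise of this size, with or without a response to red light, was seen in 156 genes, 0.902% of those tested. Of these, 77 (0.445% of the tested genes) met the rule, another 77 were already 2-fold or more above D in R1h, and 2 were 2-fold or more below D in R1h. This division follows the values alone. Some genes above D in R1h rest on 1 or 2 reads in D, and their counting interval can include no change, as for D27 and AT2G32550. A gene with a difference of 1 or more, which is 2-fold, is called higher or lower. Across all tested genes, 13.9% were called higher in WLc than in D, 10.7% were called lower, 3.89% were called higher in R1h, 2.46% were called lower in R1h, and 93.6% differed by less than 1 between R1h and D. These shares describe the contrasts that chose the genes, and nothing is read from the members' own counts in them. The 2 genes outside the band below D were BT1, at 636 pseudo-counts in D, 286 in R1h and 14295 in WLc, and AT2G22510, at 7.84, 1.31 and 225.

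**Figure D1:**
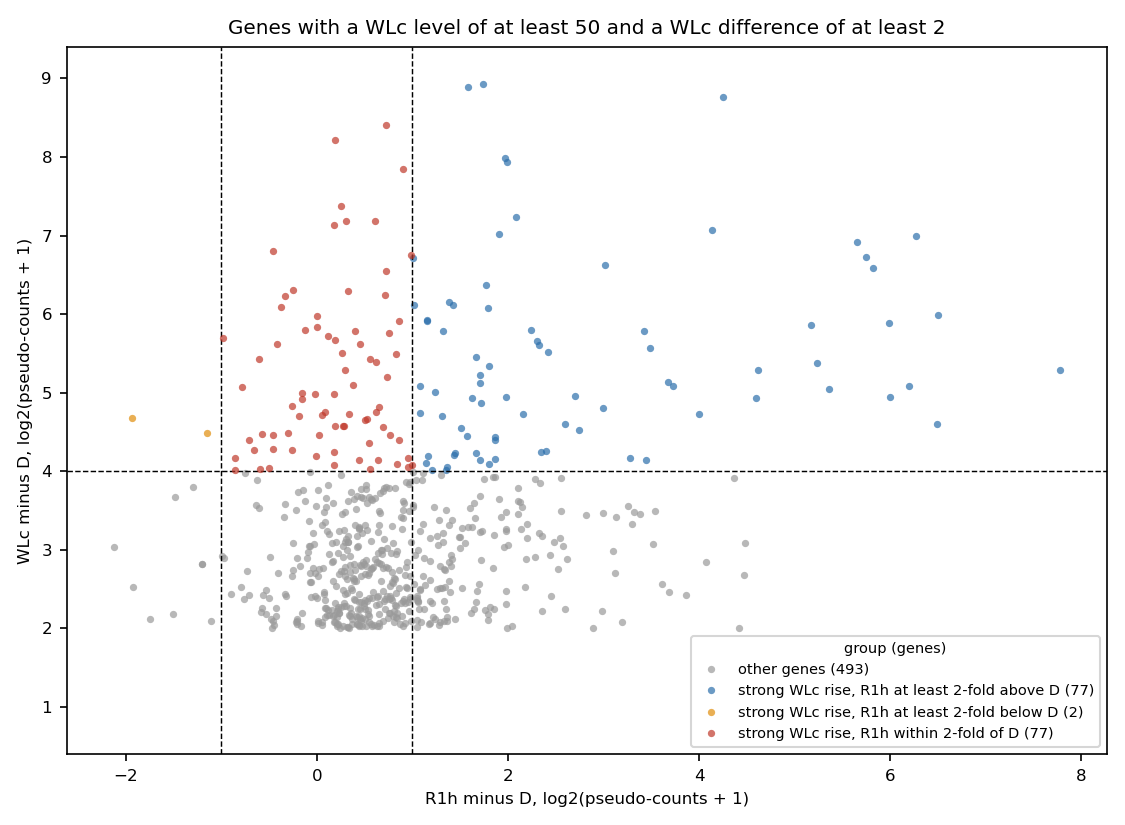
Difference from D on the log2(pseudo-counts + 1) scale after 1 h of red light (horizontal axis) and in continuous white light (vertical axis), with 1 point per gene, for genes with a WLc level of at least 50 and a WLc difference of at least 2. The 77 genes of the rule (red) lie above the dashed line at 4 and between the dashed lines at -1 and 1, and the 77 genes already higher in R1h (blue) lie to their right. Genes listed at 0 in D stand where the added 1 puts them.

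Over the 70 genes with a D level above 0, the median difference between WLc and D was 4.75 and the largest was 8.22. The R1h difference, which the rule held between -1 and 1, had a median of 0.19, with 49 genes above D, 26 below and 2 listed at 0 in both. The depth limits how firmly the R1h band can be read. The counting interval of R1h against D lay within 2-fold for 21 genes and reached past 2-fold for 56. It lay wholly above 0 for 16 genes, XTH6, CaS, CAB1, RCA and THI1 among them, and wholly below 0 for 2, so some genes inside the band differed from D beyond counting error. For the WLc rise, the lower end of the counting interval was itself at least 4 in 56 of the 77 genes, and over all 77 the lowest such end was 3.42.

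By what their products are known or annotated to do, or by family alone, 59 of the 77 genes were placed in 7 groups after the members were known. The groups hold 10 genes of chloroplasts and photosynthesis, 7 of iron and metal homeostasis, 9 of the cell wall, 10 of lipid barriers, 7 of defence, 11 other metabolic enzymes and transporters, and 5 kinases and regulators. The other 18 have other or no known roles. The chloroplast genes were the most abundant, at 3.28% of the WLc column, and the iron and metal genes were among the least abundant, at 0.00824%.

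**Figure D2:**
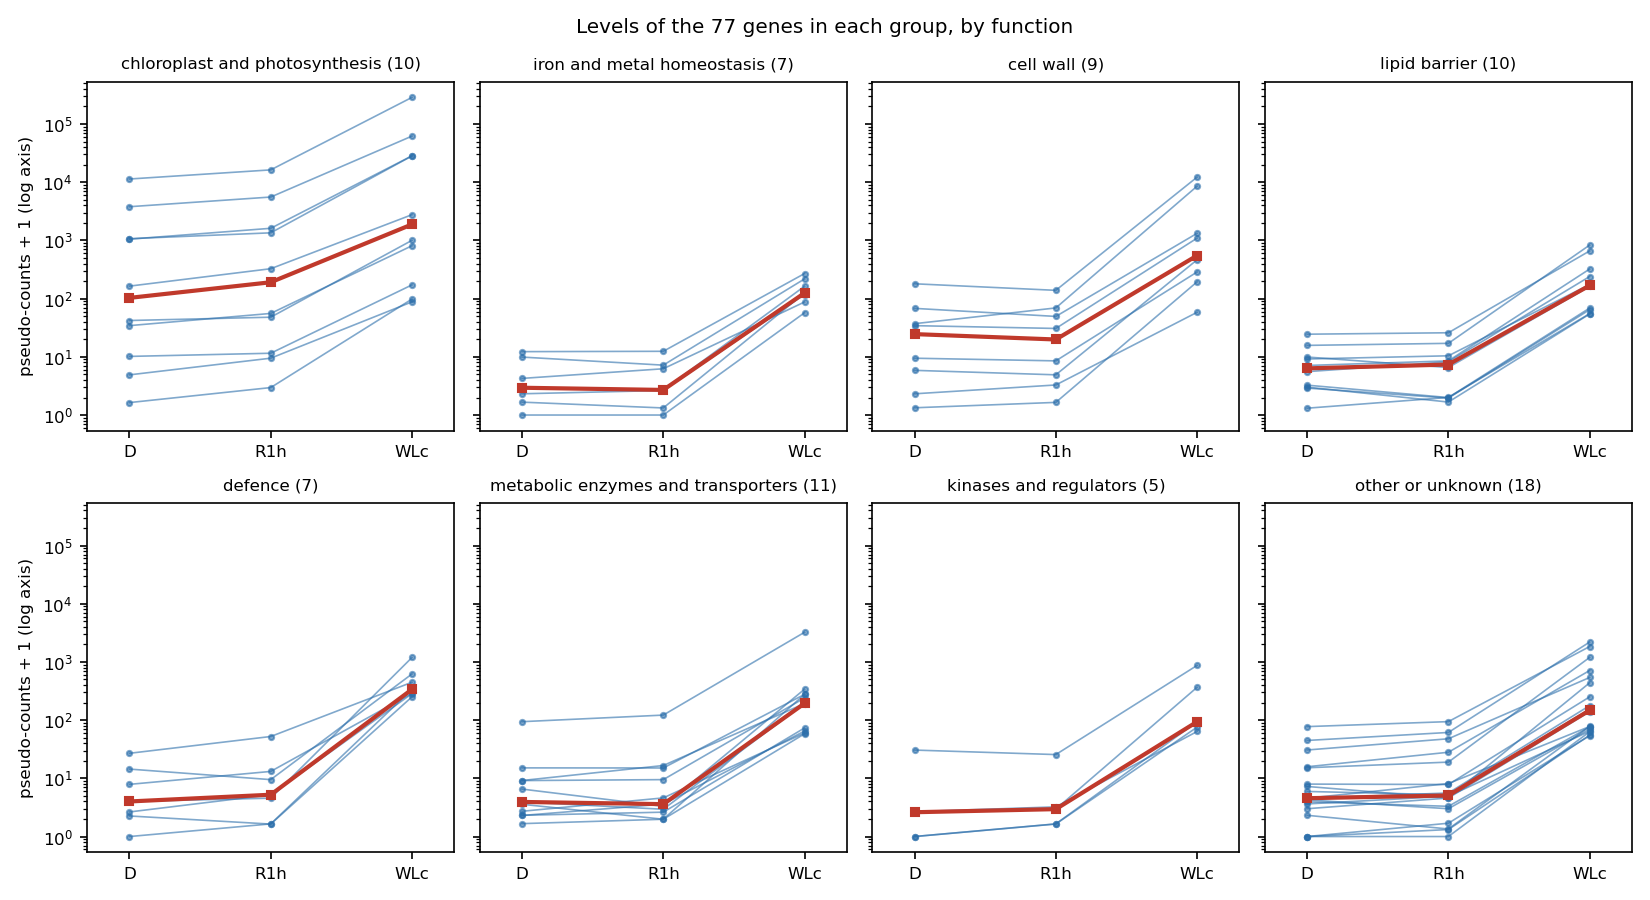
Level of each of the 77 genes (pseudo-counts + 1, log axis) in D, R1h and WLc, with a panel per function group and the number of genes in brackets. Blue lines are single genes and the red line joins the group medians. The rule fixes the shape of the lines, so the panels show the levels, from genes listed at 0 in D to CAB1 at 11354 in D and 286855 in WLc.

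Iron and metal genes were low in darkness and after red light, and 4 of the 7 encode related transcription factors. The 4 transcription factors bHLH38, bHLH39, bHLH100 and bHLH101 belong to subgroup Ib of the bHLH proteins, which are made when iron is short and switch on iron uptake together with the factor FIT. bHLH100 (AT2G41240) stood at 0.666 pseudo-counts in D, 0.323 in R1h and 124 in WLc. bHLH38 (AT3G56970) stood at 1.94, 1.70 and 162, and bHLH101 (AT5G04150) at 1.32, 1.64 and 117. All 3 rested on no more than 6 reads in D, and all 3 were at 357 to 497 reads in WLc. bHLH39 (AT3G56980), the neighbour of bHLH38 on chromosome 3, was the only 1 of the 4 with a clear level in darkness, at 11.3 in D, 11.4 in R1h and 268 in WLc. The ratio of WLc to D was 23.8 for bHLH39 with an interval of 16.9 to 34.6, and 83.4 for bHLH38 with an interval of 37.2 to 223. For bHLH101 it was 88.5 with an interval of 34.05 to 324.5, and for bHLH100, on 2 reads in D, 186 with an interval of 51.5 to 1551. These intervals overlap, apart from those of bHLH39 with bHLH38 and bHLH100.

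The 250 bases before the annotated start of these 4 genes are shown because these related genes were high in the same group. They were read from the RefSeq genome TAIR10.1 with its own gene models, matched by locus code, since the study used TAIR9 and its table gives no coordinates. All 4 genes lie on the minus strand, and no window overlaps an exon of another annotated gene. Capitals mark the letters of the motifs that were searched for on both strands and found there: the G-box CACGTG and the PIF-binding element CACATG, both bound by bHLH proteins, the I-box GATAAG, and the TATA box TATAAA.
bHLH38, chr3:21085246-21085495, minus strand: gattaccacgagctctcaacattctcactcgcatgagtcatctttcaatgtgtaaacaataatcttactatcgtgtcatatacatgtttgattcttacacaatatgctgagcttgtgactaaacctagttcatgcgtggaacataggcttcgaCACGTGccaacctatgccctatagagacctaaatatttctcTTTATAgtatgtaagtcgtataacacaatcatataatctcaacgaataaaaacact
bHLH39, chr3:21087711-21087960, minus strand: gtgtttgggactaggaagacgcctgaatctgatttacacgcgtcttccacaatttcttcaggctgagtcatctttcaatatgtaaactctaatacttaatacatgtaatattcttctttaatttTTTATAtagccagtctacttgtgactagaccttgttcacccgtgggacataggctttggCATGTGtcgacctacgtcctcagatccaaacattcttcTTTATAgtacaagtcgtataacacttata
bHLH100, chr2:17199455-17199704, minus strand: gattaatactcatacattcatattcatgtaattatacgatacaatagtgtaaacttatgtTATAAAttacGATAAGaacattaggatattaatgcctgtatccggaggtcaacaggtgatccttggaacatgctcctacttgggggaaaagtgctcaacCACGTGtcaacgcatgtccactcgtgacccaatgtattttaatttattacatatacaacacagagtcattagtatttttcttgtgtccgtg
bHLH101, chr5:1139634-1139883, minus strand: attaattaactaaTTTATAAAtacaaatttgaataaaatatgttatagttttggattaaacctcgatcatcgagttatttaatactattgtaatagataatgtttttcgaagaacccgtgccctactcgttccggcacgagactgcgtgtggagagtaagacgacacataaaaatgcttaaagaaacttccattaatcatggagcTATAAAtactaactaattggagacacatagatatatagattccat

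A G-box was present in bHLH38, beginning 97 bases before the start, and in bHLH100, 91 bases before it. bHLH39 held the reverse complement of the PIF-binding element instead, 67 bases before its start, and bHLH101 held neither. The letters of the TATA box were found in all 4, and in 46.2% of all such windows of tested genes. In bHLH38 and bHLH39 they were present only as the reverse complement, and in bHLH100 they lay 190 bases before the start. The adjacent genes bHLH38 and bHLH39 shared an identical run of 16 bases, TGAGTCATCTTTCAAT, which begins 217 bases before the start of bHLH38 and 187 bases before that of bHLH39. It was found on either strand in no other of the 17248 promoter windows of tested genes. Between all other pairs of the 4 the longest identical run was 7 to 9 bases. A match to a motif is a description of the letters and not of a bound site.

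IRT1 (AT4G19690), the main root transporter for ferrous iron, was listed at 0 in D and in R1h and stood at 56.2 in WLc, which is 172 reads. NAS1 (AT5G04950) makes nicotianamine, which carries iron through the plant. It stood at 3.26 in D, 5.24 in R1h and 86.6 in WLc, and the ratio was 26.6 with an interval of 14.0 to 55.1. COPT2 (AT3G46900), a copper transporter of the plasma membrane, stood at 8.90, 6.20 and 217, a ratio of 24.4 with an interval of 16.5 to 37.1. All 7 genes of this group were thus low in both dark-grown groups.

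Other iron genes, from a list of 43 that was made after the members were seen, differed in both directions. Of 38 tested, 17 were called higher in WLc than in D and 5 were called lower, where the shares over all tested genes were 13.9% and 10.7%, and 6 of the 17 are members. Beside them, NAS4 (2.91 in D, 7.25 in R1h and 131 in WLc) and FRO7, a ferric reductase of the chloroplast (4.82, 37.9 and 133), reached a rise of the same size and had already passed 2-fold in R1h. On the log2 scale the counting interval of R1h against D was 0.11 to 2.59 for NAS4 and 2.15 to 3.82 for FRO7. CYP82C4, listed at 0 in D and R1h, reached 29.8 in WLc, under the level minimum of 50. OPT3, a transporter of the phloem, was 3.57 higher on the log2 scale (38.5, 78.0 and 468), FRO6 3.53 higher (8.97, 5.55 and 114) and FRO2, the root ferric reductase, 2.099 higher (6.86, 4.60 and 32.7). BTS, a ubiquitin ligase that restrains the iron deficiency response, was 2.04 higher and PYE, a bHLH repressor of iron genes, 1.72 higher. FIT, the partner of the 4 bHLH factors, stood at 48.7 in D, 52.1 in R1h and 43.9 in WLc, a difference of -0.15.

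The iron storage genes named next were lower in WLc, though FER3 did not reach 2-fold. FER1, a ferritin of the plastid, stood at 9471 in D, 6634 in R1h and 1756 in WLc, a difference of -2.43. FER4 differed by -1.93 (1143, 1326 and 298) and FER3 by -0.97 (702, 796 and 357). VIT1, which loads iron into vacuoles, was at 14.1 in D and 7.80 in R1h and was listed at 0 in WLc. MYB10, a root regulator and not a storage gene, stood at 482, 222 and 14.5, a difference of -4.97. Among 11 tested copper genes, 4 were called higher (COPT2 among them) and 2 called lower, beside 13.9% and 10.7% of all tested genes. The superoxide dismutases CSD1 (974, 1041 and 275) and CSD2 (2852, 3907 and 860), which hold copper and zinc, were lower, and FSD1, the iron form, stood at 8156, 7137 and 10511.

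**Figure D3:**
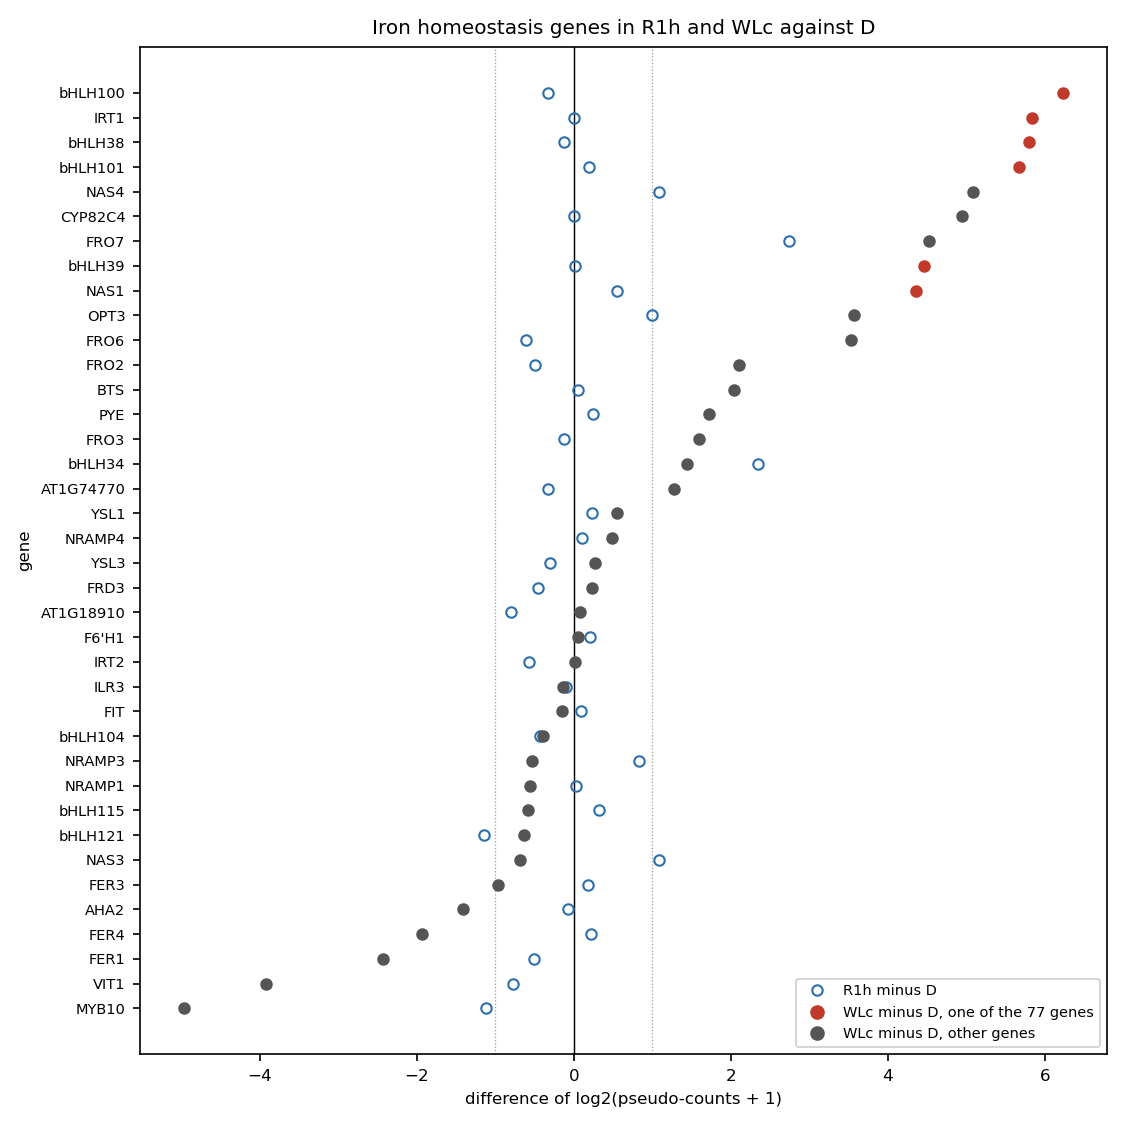
Difference from D on the log2(pseudo-counts + 1) scale for the 38 tested iron homeostasis genes, in R1h (open circles) and in WLc (filled circles, red for the 6 genes that meet the rule). The WLc differences run from -4.97 for MYB10 to 6.23 for bHLH100, while most R1h differences lie between the dotted lines at -1 and 1. IRT1 and CYP82C4, listed at 0 in D, and VIT1, listed at 0 in WLc, stand where the added 1 puts them.

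The chloroplast group held the abundant members. CAB1 (AT1G29930), also called LHCB1.3, encodes a protein of the main light-harvesting antenna. It stood at 11354 in D, 16292 in R1h and 286855 in WLc, the highest value of the WLc column, and its ratio was 25.3 with an interval of 25.0 to 25.5. Its 3′ end has close copies: 81.4% of the 50-base windows in its last 500 bases occur in no other gene, and only reads that mapped to a single gene were counted. Of 21 tested antenna genes, 20 were called higher in WLc, beside 13.9% of all tested genes, and 10 had a rise of at least 4. CAB1 was the only member among those 10, and the other 9 had already passed 2-fold in R1h. LHCB1.1, for example, stood at 301 in D, 5767 in R1h and 131109 in WLc, and LHCB1.4 at 124, 417 and 61067. CAB1 had the highest D level of the 10.

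RCA, Rubisco activase, which keeps the carbon-fixing enzyme active, stood at 3795 in D, 5563 in R1h and 62002 in WLc, and the ratio was 16.3 with an interval of 16.03 to 16.65. It lies just inside the WLc bound, at 4.03, and was outside it when the columns were scaled to the same total or quantile normalized. CA1, the chloroplast carbonic anhydrase, stood at 1070, 1350 and 28314. THI1, which makes the thiazole part of vitamin B1 in plastids, stood at 1050, 1615 and 28406. CA1 and THI1 were close in D and WLc, while the R1h level of THI1 was the higher. Of 21 tested genes of the Calvin cycle and Rubisco, 16 were called higher and 0 lower in WLc, beside 13.9% and 10.7% of all tested genes. The 2 members were CA1 and RCA, and the 2 genes of the same rise that had passed 2-fold in R1h were RBCS1B (866, 3022 and 14848) and FBA1 (344, 879 and 5578).

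The remaining chloroplast genes were lower in level. CaS, a calcium sensing protein of the thylakoid, stood at 163 in D, 326 in R1h and 2767 in WLc, and its R1h difference of 0.99 lies just under the bound. NdhU, a subunit of the chloroplast NDH complex of cyclic electron flow, stood at 33.4, 54.7 and 809, a difference of 4.56. It had the largest rise of 18 tested genes of this complex and of cyclic electron flow. Of these, 17 were called higher and 0 lower in WLc, beside 13.9% and 10.7% of all tested genes. PPT2, which brings phosphoenolpyruvate into plastids, was at 0.637, 1.96 and 97.3. AT2G27402, annotated as a plastid transcriptionally active protein, stood at 41.1, 47.0 and 1003, and NCED4, a carotenoid dioxygenase, at 3.90, 8.48 and 87.0. ATCG00020, the only member whose locus code is of the chloroplast genome, stood at 9.17, 10.5 and 171. How well reading at the 3′ end captures transcripts of the chloroplast genome was not tested. NCED4 and ATCG00020 each met the rule under only 1 of the 4 other scales and normalizations. In R1h, all 10 genes of the group were above D within the band set by the rule, with a median difference of 0.59. The counting interval reached below D for PPT2, AT2G27402 and ATCG00020.

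Among cell wall genes, 2 XTH genes stood out by level. XTH6 (AT5G65730) stood at 36.1 pseudo-counts in D, 68.2 in R1h and 8544 in WLc, and the ratio was 237 with an interval of 196 to 288. XTH7 (AT4G37800) stood at 179, 138 and 12231, a ratio of 68.4 with an interval of 62.8 to 74.5. The rise of XTH6 was thus larger than that of XTH7 by more than the counting error, and the levels of both in WLc were among the 205 highest of the column. The rest of the XTH family did not share this. Of 26 tested, 4 were called higher in WLc, among them XTH25 with 1.95 and XTH12 with 1.29. Another 12 were called lower, with XTH15 (10864 in D, 1924 in R1h and 151 in WLc) the lowest at -6.16. Over all tested genes, 13.9% were called higher and 10.7% lower. The median of the family was -0.67, and XTH6 and XTH7 were its only genes with a rise of at least 4.

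The other wall genes are mostly of families of structural wall proteins. AT3G16670, of the pollen Ole e 1 allergen and extensin family, rested on 1 read in D and stood at 0.333, 0.649 and 193, while its neighbour AT3G16660 stood at 33.3, 29.7 and 1094. The ratio for AT3G16660 was 32.8 with an interval of 26.8 to 40.2, and for AT3G16670 it was 581 with an interval of 104 to 23078. GRP9, a glycine-rich protein, stood at 4.86, 3.91 and 464. The neighbours PELPK1 (8.47, 7.52 and 286) and PELPK2 (1.32, 2.28 and 57.2), annotated as hydroxyproline-rich glycoproteins, and SVL2, of the SHV3-like proteins that act in cell wall organization (67.0, 48.5 and 1323), completed the group with AT4G38080 (23.6, 18.9 and 549). In R1h, 6 of the 9 wall genes were below D and 3 above, all within the band set by the rule. The counting interval lay wholly below D for XTH7 and SVL2 only, and wholly above D for XTH6 only.

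The lipid barrier group had a median WLc level of 167. Apart from ABCG6 and CYP86B1, its genes were placed there by family alone. ABCG6, a transporter that takes part in suberin formation, stood at 4.57 in D, 7.19 in R1h and 238 in WLc, and the ratio was 52.2 with an interval of 30.4 to 94.4. CYP86B1, an oxidase of very long fatty acids for suberin, stood at 2.26, 0.997 and 67.8, a ratio of 29.99 with an interval of 14.0 to 73.7. Lipases of the GDSL type, a family with many members of unknown substrate, were AT4G28780 (14.7, 16.1 and 830), AT2G23540 (23.5, 24.9 and 658) and AT1G74460 (8.18, 9.42 and 174). Of 47 tested GDSL genes, 10 were called higher and 14 called lower in WLc, beside 13.9% and 10.7% of all tested genes. The 10 include 4 members, which the rule chose as higher: the ones named here and ESM1, placed under defence. Proteins of the lipid transfer type were AT4G22517 (0.311, 1.01 and 54.2), AT2G18370 (1.90, 0.955 and 63.5) and AT3G58550 (2.02, 0.671 and 53.4). Their family has 57 tested genes, with 21 higher, these 3 members among them, and 12 lower. The family's most abundant gene, LTP2, stood at 551925, 604258 and 8888.

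The last pair of this group, AT5G44550 (6.10, 7.52 and 321) and AT3G06390 (8.92, 5.55 and 161), belongs to the UPF0497 family, which includes the Casparian strip proteins of the root. The pair was placed here by that family alone, and nothing measured ties it to lipids. Of the family's 30 tested genes, 4 were called higher (this pair among them) and 9 called lower in WLc, beside 13.9% and 10.7% of all tested genes. The lower ones include CASP1 to CASP5, which guide the lignin band of the root endodermis, with differences from -1.96 for CASP1 (3699 in D, 2852 in R1h and 952 in WLc) to -3.75 for CASP5 (2919, 2450 and 216). A list of 22 genes for the cuticle and its waxes, of which 19 were tested, held no member, with 0 called higher and 7 called lower in WLc.

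**Figure D4:**
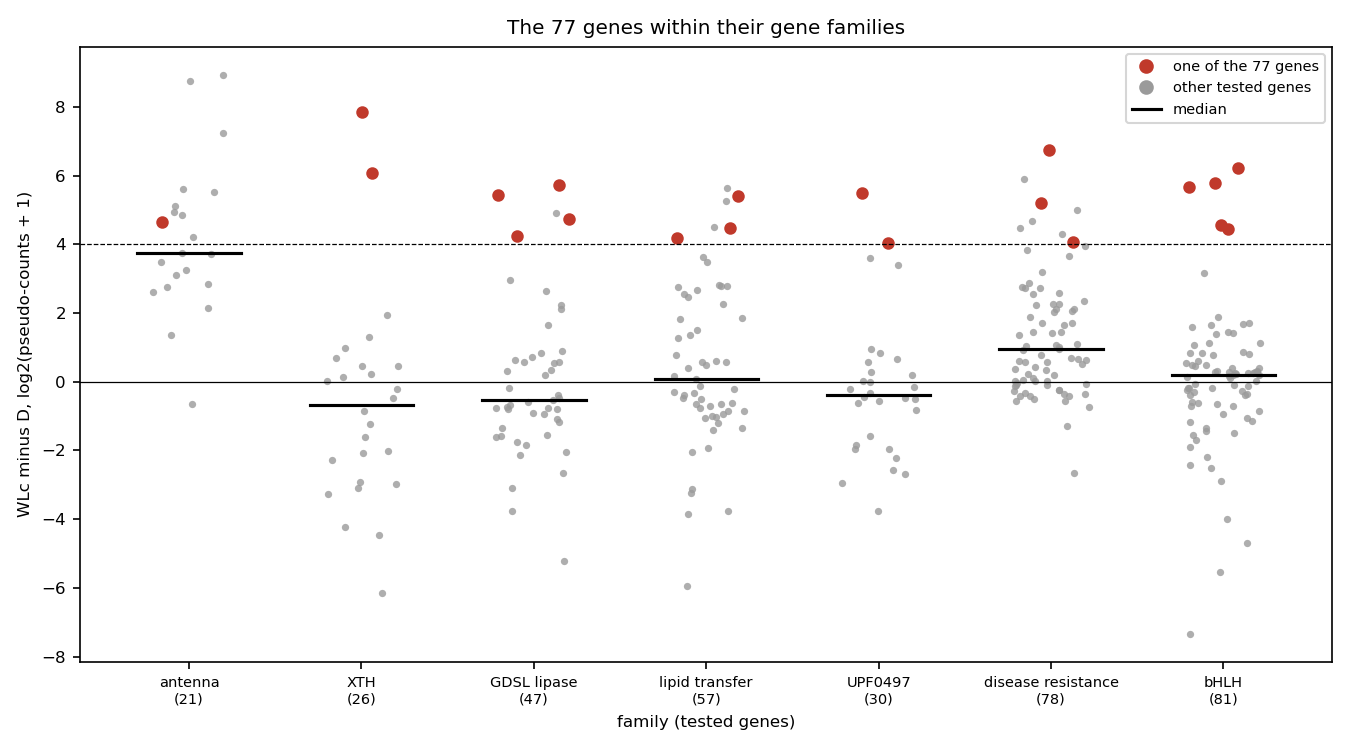
Difference between WLc and D on the log2(pseudo-counts + 1) scale for every tested gene of 7 families that hold members, with the number of tested genes in brackets. Red points are the 77 genes of the rule, grey points are other genes, black bars are medians and the dashed line marks the bound of 4. In the XTH family the 2 red points lie above all others, while in the antenna genes CAB1 lies within the range of the others.

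Defence genes had a median difference of 6.75, that of AT1G61300 on 5 reads in D, and WLc levels from 250.4 to 1191. The rule chose on this difference, so the groups are not compared by it. The difference of LOX2, the largest, depends on the added 1. LOX2 (AT3G45140), a plastid lipoxygenase that starts jasmonate synthesis, was listed at 0 in D, stood at 0.649 in R1h, which is 2 reads, and at 337 in WLc, which is 1032 reads. AT1G66100, annotated as a thionin, a small antimicrobial peptide, stood at 3.00, 3.56 and 1191, a ratio of 396 with an interval of 210 to 874. ACD6, an ankyrin protein that promotes salicylic acid defence, stood at 1.26, 0.636 and 250. ESM1, which steers glucosinolate breakdown towards isothiocyanates, stood at 13.4, 8.499 and 620, a ratio of 46.2 with an interval of 34.2 to 65.7. Of 17 tested jasmonate genes, 5 were called higher and 4 called lower in WLc: AOC2 (6.90, 6.15 and 106) and AOS (211, 294 and 833), which follow LOX2 in the pathway, were higher, and AOC4 (992, 663 and 366) was lower. Of 20 tested glucosinolate genes, 8 were higher and 2 lower, and MYB28, a regulator of the pathway at 0.999, 2.93 and 45.2, lies just under the level minimum. Beside both lists, 13.9% of all tested genes were called higher and 10.7% lower.

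Among 8 tested genes for thionins, defensins and pathogenesis-related proteins, 2 were called higher and 2 called lower, beside 13.9% and 10.7% of all tested genes. The other thionin, THI2.2 (14.1 in D, 852 in R1h and 1440 in WLc), was far above D in R1h already, and 0.76 higher still in WLc on the log2 scale. The 3 disease resistance genes, which encode intracellular immune receptors, were AT1G61300 (1.64, 4.23 and 284), AT1G61190 (6.88, 12.1 and 288) and AT1G63880 (25.9, 51.3 and 447). Of 78 tested genes annotated as disease resistance proteins, 38 (the 3 members among them) were called higher and 2 called lower in WLc. The median of the 78 was 0.94 against 0.02 over all tested genes. In R1h, 4 were called higher and 3 lower, beside 3.89% and 2.46% of all tested genes. AT1G61300 and AT1G61190 have close copies, with 94.5% and 90.7% of windows unique.

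Metabolic enzymes and regulators made up the rest of the known genes. PGL5, a 6-phosphogluconolactonase of the oxidative pentose phosphate pathway, rested on 2 reads in D and stood at 0.666, 0.982 and 276. ASN2, an asparagine synthetase, was the most abundant of them at 93.1, 121 and 3230, a ratio of 34.7 with an interval of 30.8 to 39.2. It had the largest rise of 11 tested genes of nitrate and ammonium assimilation. Of these, 8 were called higher and 0 lower in WLc, or 7 and 3 with the columns scaled to the same total. The shares over all tested genes were 13.9% and 10.7%. ASN1, its dark-expressed relative, stood at 3671, 1474 and 1989. FAH1, a hydroxylase for sinapate esters and lignin, stood at 14.1, 14.1 and 276, and FUM2, a fumarase, at 2.59, 0.982 and 57.2. FUM2 lies just inside the WLc bound and met the rule under none of the 4 other scales and normalizations. The transporter AT5G52050, of the MATE family, stood at 5.53, 2.304 and 339, and CYP71B4 at 2.93, 1.94 and 193. The pair AT2G29300 (1.301, 2.60 and 63.9) and AT2G29320 (1.32, 1.62 and 72.3), annotated with the same Rossmann fold, lies on chromosome 2 with 1 gene between.

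Of the kinases, CIPK20, of a family that acts with calcium sensors, stood at 1.62, 1.96 and 365. The receptor kinases CRK21 (74.7 in WLc) and AT1G29720 (92.7 in WLc) were listed at 0 in D and had 2 reads each in R1h. OFP16, an ovate family regulator, stood at 29.6, 24.6 and 870, and the bHLH gene AT1G68240 at 1.67, 2.23 and 62.8. Together with the 4 iron factors it made 5 members among 81 tested bHLH genes. Of the 81, 17 were called higher, these 5 among them, and 17 called lower, beside the same 13.9% and 10.7%. The family was taken from product names, which leave out genes such as PIF7, at 0.658 in D, 5.21 in R1h and 215 in WLc. Among genes of other or unknown function, AT2G25510 (43.7, 60.4 and 2193), AT5G05250 (76.4, 93.3 and 1836) and AT1G23130 (14.2, 18.0 and 1195), of the polyketide cyclase type, had the highest WLc levels, and AT3G55240 (2.01, 3.59 and 436) had the largest rise. AT3G05727 (62.1 in WLc), AT3G28270 (54.1) and AT1G24147 (53.0) were listed at 0 in D and had 0, 1 and 2 reads in R1h.

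The genes next to the bounds show how the rule divides neighbours. Just inside the WLc bound of 4 were FUM2 at 4.02, AT3G06390 at 4.03 and RCA at 4.03, and just outside were AT3G19850 at 3.99, HOL2 at 3.98 and RLM3, a resistance gene, at 3.95. Just inside the R1h bound were CaS at 0.99, AT5G52050 at -0.98 and AT1G61300 at 0.98. Just outside were AT2G32550 at 1.01, D27, a plastid isomerase of strigolactone synthesis, at 1.02 and AT1G04350 at 1.08. AT1G24147, AT3G58550 and AT3G28270 lie just over the level minimum, and AT4G22485 (49.4), MYB28 (45.2) and AT1G35290 (44.7) just under it.

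Some properties were not used by the rule. Of the 77 genes, 13 lie on chromosome 1, 14 on chromosome 2, 16 on chromosome 3, 15 on chromosome 4, 18 on chromosome 5 and 1 in the chloroplast. The share of all genes on each chromosome was not computed, so nothing is read from these counts. Direct neighbours were 3 pairs: AT3G16660 with AT3G16670, bHLH38 with bHLH39, and PELPK1 with PELPK2. How many such pairs other sets of genes hold was not computed, so this number is not read as few or many. Of the 129 genes that earlier work on other libraries had listed as repressed by PIFs and bound by them, 116 are in the table and 4 are members: AT3G55240, OFP16, AT5G38980 (29.7, 46.8 and 539) and RCA. That is 5.19% of the members and 3.45% of the listed genes in the table, while 0.624% of all tested genes carry this label, and 5 of the 77 genes already higher in R1h do. None of the 195 PIF-induced genes in the table, which make up 1.11% of the tested genes, is a member, and none is among the genes already higher in R1h. Since PIF-repressed genes were defined by a higher level without PIFs in darkness, this overlap is a count and was not tested.

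Motifs were searched on both strands in 300 bases around the annotated start, 250 before and 50 after it, in 76 members, in the 77 genes already higher in R1h and in 17248 tested genes. The G-box CACGTG was found in 4 members (5.26%), in 14 of the genes already higher in R1h (18.2%) and in 9.20% of all. The I-box GATAAG was found in 17.1%, 24.7% and 15.3%, the evening element AAATATCT of clock-controlled genes in 2.63%, 9.09% and 5.93%, and AAAAATCT, bound by the clock protein CCA1, in 6.58%, 15.6% and 8.26%. The PIF-binding element CACATG, whose reverse complement CATGTG is also a site of MYC factors, was found in 15.8%, 22.1% and 12.99%. The letters AACGTG were found in 13.2%, 11.7% and 8.96%, the L1 box TAAATGTA of epidermal genes in 5.26%, 1.299% and 3.51%, the site II element TGGGCC in 6.58%, 5.19% and 19.4%, and the TATA box TATAAA in 61.8%, 48.1% and 51.5%. These shares are a description, and no difference between them was tested.

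The tissue was whole seedlings, in which fewer cells of a type and less RNA per cell cannot be told apart. Of 8 lists of tissue markers with 64 tested genes, none held a member, 12 genes were called higher and 14 called lower in WLc, beside 13.9% and 10.7% of all tested genes. Seed reserve genes were lower in 9 of 9, and their summed level was 3118 in D, 3720 in R1h and 269 in WLc, with SESA1 listed at 0 in WLc. Guard cell and stomatal markers were higher in 4 of 10 and lower in 0, with sums of 453, 466 and 948. Root markers were higher in 2 of 9 and lower in 2 (CASP1 and CASP2), the 2 higher ones becoming 0 when 5 was added before the log and 1 when the columns were rescaled, with sums of 6859, 5514 and 1989, epidermis markers higher in 1 of 8 and lower in 1 (36365, 41457 and 22325), and companion cell markers higher in 3 of 5 and lower in 1 (1437, 1316 and 1672). Trichome markers were higher in 1 of 6 and lower in 1 (455, 472 and 651), xylem markers higher or lower in 0 of 6 (1504, 1341 and 1227), and shoot meristem and leaf markers higher in 1 of 11 and lower in 0 (2365, 2616 and 2619). Apart from SESA1, every marker in the table was above 0 in all 3 groups. The part of a changed tissue composition in the levels of the 77 genes was not tested.

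In the 12 pathway lists without a member, which cover photosystems, photorespiration, flavonoids, aquaporins and others, 74 of 158 tested genes were called higher in WLc and 35 called lower, and 10 had a rise of at least 4. Over all tested genes, 13.9% were called higher and 10.7% called lower. Of the 31 photosystem and electron transport genes 30 were higher, with a median of 2.93 and 0 with a rise of at least 4. Of 12 photorespiration genes 10 were higher, with a median of 2.71. The 13 flavonoid genes had 9 higher in WLc and 10 already higher in R1h, where 3.89% of all tested genes were.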

How the data were processed

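Steady state mRNA was measured by 3′-end RNA-seq in 9 libraries, 3 per group, grouped by their titles. The authors aligned reads with Bowtie to TAIR9 transcripts, allowing no mismatch, and counted the unique reads of the last 500 bases on the coding strand. The authors used edgeR to make the deposited signal, pseudo-counts averaged over the 3 libraries of a group, with no value or depth per library. The versions of Bowtie and of the authors' edgeR are not stated. No column of per-sample values was left out (0 unmapped columns). Tests over libraries were therefore not possible.

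Values below 1e-06 were read as 0. Differences are of log2(value + 1), on which low genes change less than in plain ratio, and genes with a level of at least 10 in some group were tested for size, a 2-fold difference being called. Exact conditional binomial (Clopper-Pearson) 95% intervals used each value divided by that of 1 read. They were tested on simulated reads with counting error only, which checks the calculation and not their fit to these libraries. Where a gene has 1 to 3 reads in D its ratio is a rough value, and where it is listed at 0 in D no fold is given. PCR reads without molecular identifiers are not independent molecules.

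Gene symbols, products and promoters come from RefSeq TAIR10.1, in which 76 of the 77 genes were found by locus code. For 70 of these, all 50-base windows of the last 500 bases occur in no other gene, and the lowest share was 81.4%. Of 35 gene lists, 27 were written before the table was opened, 19 of pathways and 8 of tissue markers. The other 8 (iron, copper and 6 families) and the function groups were made after the members were seen. Their counts of higher genes include members that the rule chose as higher. The members and lists were chosen with earlier results of these data known. Named are the 12 largest WLc differences, the 8 highest WLc levels, up to 5 genes per function group, genes listed at 0 in D, 3 genes on either side of each bound, the 3 highest and 3 lowest R1h differences, neighbours, PIF targets, and per list its members and up to 4 others. Genes named beyond this were chosen after their values were seen. A check of protein features had been planned and was not run. Analyses used Python 3.11.15, numpy 2.4.6, pandas 2.3.3, scipy 1.17.1 and matplotlib 3.10.9.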

Additional observations from a re-analysis of the deposited data

How the results depend on the processing

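Bounds and scales decided how many genes met the rule. With the R1h bound at 0.5 in place of 1 there were 41, with the WLc bound at 3 there were 171 and at 5 there were 35. Adding 5 in place of 1 before the log gave 54, of which 45 were among the 77, and lowered the median WLc difference of the members from 4.92 (4.75 without genes listed at 0 in D) to 4.27, their median difference between WLc and R1h from 4.92 to 4.13, and the number of genes with the same rise already 2-fold higher in R1h from 77 to 48, as the larger constant shrinks the differences of low genes. Adding 0.5, scaling the columns to the same total and quantile normalization kept 66, 68 and 65 of the 77 genes. Under all 4 of these settings 38 remained, and FUM2 was the only gene lost under each. AT1G24147, AT2G47370, AT3G06390, AT3G58550, MEE47, NCED4, AT5G52050 and ATCG00020 were each kept under only 1 of them. Scaling to the same total shifted the median WLc difference of all tested genes by -0.127. A level minimum of 10 gave 106 genes, of 100 gave 53, and asking the lower end of the counting interval to be at least 4 gave 56. Summed over the 27 lists of pathways and tissue markers that were written beforehand, 162 genes were called higher and 57 lower. Both numbers stayed within 1.5 times under the 5 alternatives, as did the G-box count of 4 without the bases after the start. Allowing 1 gene in between gave 4 neighbouring pairs in place of 3. Of 359 alternative counts for single lists and motifs, 12 moved by more than 1.5 times. The list median changed sign when the columns were rescaled for the lipid transfer family, the sugar transporters and the shoot meristem and leaf markers, and without the filter on low values for the jasmonate genes. The members whose R1h counting interval lay within 2-fold, a choice made after seeing the data, had a median R1h difference of 0.12.

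No paired analysis was possible because the table holds 1 mean per group, and for the same reason leaving out a replicate was not possible. A check of protein features was not run. The spread between plants is unknown, and for genes with few reads in D the size of the rise is known only roughly.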
